A study of Homo sapiens with 2 samples.

Results

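The VEGF ligands and their receptors were examined in SNU449 cells, a long-established line from a human liver cancer. The set held 8 genes of the 19316 listed in at least 1 library, namely the ligands VEGFA, VEGFB, VEGFC and PGF and the receptors and co-receptors FLT1, KDR, NRP1 and NRP2, each found by its gene identifier. Cells of the first group carried a lentiviral short hairpin RNA (shRNA) against the Wnt receptor FZD2, cells of the second a control hairpin labelled shNC, and poly(A)-selected RNA of both was sequenced 7 days after transduction. Each group was 1 library, so no value has a replicate error, no difference was tested for significance, and differences are between these 2 libraries. In bulk RNA, fewer cells of a type and less RNA per cell cannot be told apart.

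VEGF ligands are secreted dimers that drive the growth and permeability of blood vessels. They bind receptor tyrosine kinases, of which KDR carries most of the angiogenic signal in endothelial cells and FLT1 binds its ligands tightly but signals weakly. The neuropilins NRP1 and NRP2 are co-receptors that also bind class 3 semaphorins. Hepatocellular carcinomas are richly vascular tumours, and their cells are a known source of VEGFA.

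The libraries held 8234592 expected counts (FZD2 shRNA) and 8436870 (control), and the 14377 genes with 1 FPKM or more in either library are termed measured. FPKM is a read count scaled to gene length and to the reads of the library. FZD2 itself was at 15.76 FPKM with its own hairpin and 59.45 FPKM in the control. A gene was taken to have shared reads, reads that also match other genes, where its expected count was not a whole number. By this rule FZD2 had shared reads, at 503.28 expected counts with its hairpin and 1949.91 in the control. The labels disagree on the tissue, since the growth protocol says prostate and the cell type says liver. Of 12 hepatocyte markers 3 were measured and ALB, the albumin gene, was at most at 0.05 FPKM. Of 9 prostate markers 4 were measured, and KLK3, the gene for prostate-specific antigen, was listed in neither library. All 9 mesenchymal markers were measured.

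Of the 8 genes, VEGFA was at least 2-fold lower with the FZD2 hairpin and FLT1 at least 2-fold higher, VEGFB, PGF, NRP1 and NRP2 lay between, and KDR and VEGFC were below 1 FPKM in both libraries. Among all measured genes 7.41% were at least 2-fold lower and 15.2% at least 2-fold higher, beside 1 of the set's 6 measured genes in each direction. With no filter on low values the shares were 5.52% and 11.3% of the 19316 listed genes, beside 1 of 8 in each direction. A single gene makes up each of these counts, so they do not set the set apart from other genes. The median log2 ratio of the set had no settled sign. It was -0.08 over the 6 measured genes and 0.14 over the 7 genes other than VEGFC with no filter, where the middle gene was the barely detected KDR, against 0.00 over all measured and all listed genes. Ligands and receptors each held genes on either side of 0.

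**Figure D1:**
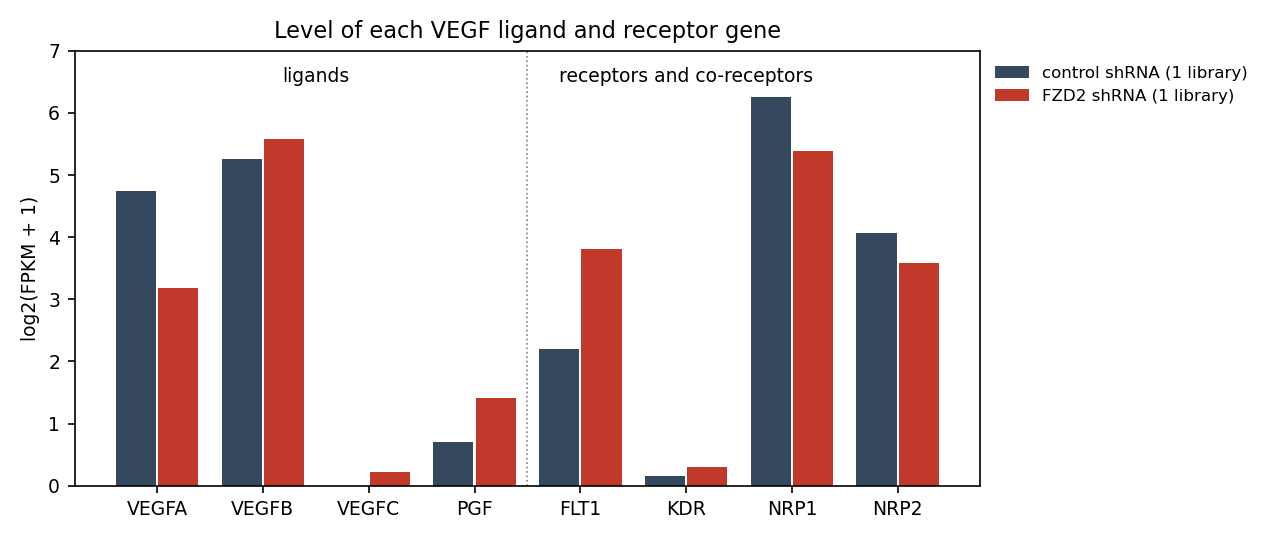
Bars give log2(FPKM + 1) of each gene in the control library (dark) and the FZD2 shRNA library (red), 1 library each and hence no error bars, with ligands left of the dotted line. VEGFA and FLT1 show the widest gaps, in opposite directions, and VEGFC has no bar in the control library, where it was unlisted.

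VEGFA, the main angiogenic ligand, stood at 8.06 FPKM with the FZD2 hairpin and at 25.79 in the control. The control library was the higher, by a log2 ratio of -1.56 on FPKM + 1 (FZD2 shRNA over control), or 2.96-fold. Its expected counts were 186 and 656, both whole, which gave a count log2 ratio of -1.78 with a 95% counting interval of -2.03 to -1.55. Such intervals cover the counting error of these 2 libraries only and take every read as independent. The FPKM difference was smaller than the count difference in part because the listed gene length was also shorter, at 2780.05 bases with the FZD2 hairpin and 2981.74 in the control, and FPKM divides by that length. Of all measured genes, 1.29% had a lower log2 ratio than VEGFA. An antisense gene covers 1.3% of the annotated exon bases of VEGFA (4.87% for NRP1 and 1.06% for NRP2), and without a stated strand setting reads of the 2 strands cannot be told apart. The level of VEGFA among the measured genes of each library went from the 80.9th percentile in the control to the 51.8th with the hairpin.

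VEGFB, a ligand of FLT1 linked to fatty acid handling and cell survival, was the most abundant ligand in both libraries. It was at 46.8 FPKM with the FZD2 hairpin and 37.22 in the control, from 699 and 572 counts, and the count log2 ratio was 0.32 (0.16 to 0.49). The interval lay above 0 but far below 2-fold. PGF, placental growth factor, a further ligand of FLT1, was near the detection limit at 1.65 against 0.62 FPKM, or 26 against 10 counts. Its count log2 ratio of 1.41 had an interval of 0.31 to 2.63, while on FPKM + 1 it was 0.71, since the added 1 FPKM outweighs values this low. PGF was measured only through the FZD2 shRNA library, so a higher value there was built into its selection. VEGFC, the lymphatic growth factor, had 3 counts with the FZD2 hairpin (0.17 FPKM) and was unlisted in the control, too few for a ratio.

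The make-up of the ligand pool in FPKM therefore differed between the libraries. VEGFA was 14.2% of the summed ligand FPKM with the FZD2 hairpin and 40.5% in the control, where the sums were 56.68 and 63.63 FPKM. VEGFB made up 82.6% and 58.5%. The ratio of VEGFB to VEGFA, which does not depend on how the libraries are scaled, was 5.81 against 1.44 in FPKM. On counts that ratio differed by 2.11 on the log2 scale, with a 95% Wald interval of 1.82 to 2.39 for counting error. The interval does not cover the GC trend given below, and mean GC content was 63.6% for VEGFB and 56.7% for VEGFA. With that trend subtracted, the log2 ratios on FPKM + 1 were 0.18 for VEGFB and -1.46 for VEGFA. At the GC content of the transcript nearest in length they were 0.07 and -1.23, so the 2 genes lay closer together.

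FLT1, whose product also circulates as a soluble form that captures ligand without signalling, was at 13.05 FPKM with the FZD2 hairpin and 3.57 in the control. The FZD2 shRNA library was the higher, by a log2 ratio of 1.62 on FPKM + 1, or 3.07-fold. Its expected counts of 322.77 and 90.35 gave a count log2 ratio of 1.88 (1.54 to 2.23), but neither count was whole, so FLT1 had shared reads. The length listed for FLT1 was 2968 bases in the control and 2978.75 with the hairpin. Of the 4 FLT1 transcripts that the files name, matched by RefSeq accession to GENCODE release 29, the nearest in length was FLT1-204 (NM_001160030) at 2969 bases, within 1 base of the control value, whereas the full-length FLT1-201 (NM_002019) holds 7092 bases. A mixture of the other transcripts could also average to such a length, and the files give no values per transcript.

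FLT1-204 encodes a shortened, soluble receptor, and its sequence is shown where it leaves the full-length messenger, since it is the named transcript nearest to the listed length. Both transcripts run on the minus strand of chromosome 13 (GRCh38, the build of GENCODE release 29, not the authors' hg19) and share exon 14. FLT1-204 then reads into a last exon of 568 bases at chr13:28368096-28368663, inside an intron of FLT1-201, and FLT1-201 goes on to its exon 15 at chr13:28357554-28357685. Each line gives the last 30 bases of exon 14 in lower case (chr13:28384885-28384914), followed in capitals by 83 coding bases of the transcript's own next exon, which for FLT1-204 (chr13:28368581-28368663) are all that remain before its stop codon.
FLT1-204: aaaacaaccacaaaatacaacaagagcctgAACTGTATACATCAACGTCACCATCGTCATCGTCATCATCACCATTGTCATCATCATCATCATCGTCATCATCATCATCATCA
FLT1-201: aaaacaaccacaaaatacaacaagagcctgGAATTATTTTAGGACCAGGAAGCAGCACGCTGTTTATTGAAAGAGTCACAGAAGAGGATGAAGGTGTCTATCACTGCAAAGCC

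The coding sequence of FLT1-204 was 2199 bases against 4014 in FLT1-201, and the kinase region lies in the part it lacks. After its stop codon, the last exon of FLT1-204 held 76 bases (exon positions 348 to 423) that resemble Alu, the most common human repeat, by a match to the 7SL RNA gene RN7SL1. The other FLT1 transcripts, and those matched for the other 7 genes, held no such match. Among measured genes with both shared reads and Alu-like sequence in a transcript, 1192 of 3091 (38.6%) were at least 2-fold higher with the FZD2 hairpin, against 320 of 7604 (4.21%) among genes with neither. With shared reads alone the share was 454 of 2720 (16.7%), and with Alu-like sequence alone 12 of 395 (3.04%). FLT1 thus belongs to the class with the highest share of the 4, although most genes of that class were not 2-fold higher. Whether its own difference came from reads of other Alu copies was not tested.

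**Figure D2:**
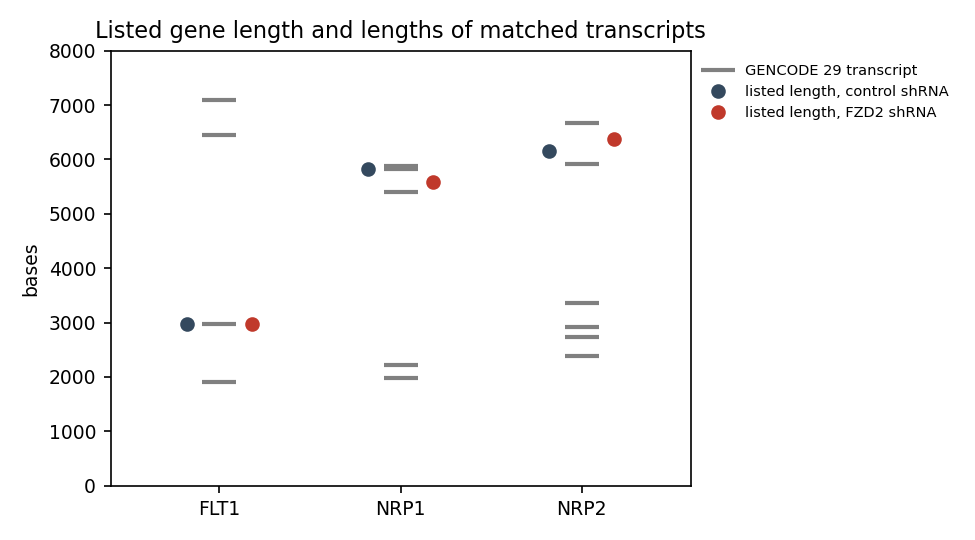
Grey bars mark the lengths, in bases, of the GENCODE release 29 transcripts matched to FLT1, NRP1 and NRP2, and points the gene length listed in the control (dark) and FZD2 shRNA (red) libraries. The FLT1 points lie at FLT1-204 in both libraries, while those of NRP1 and NRP2 lie among the long transcripts.

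KDR, the main signalling receptor, was barely detected, at 0.23 against 0.12 FPKM. Its 11.73 and 6.32 expected counts gave a count log2 ratio of 1.04 with an interval of -0.49 to 2.73, so no difference was detectable at this depth. FLT4, the VEGFC receptor, which is not among the 8 genes, was at 0.26 against 0.28 FPKM, and its ligand gene VEGFD was listed in neither library, where 3 counts would be 3.64e-05% and 3.56e-05% of the totals.

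The neuropilins were the most abundant receptor genes in the control, and both were lower with the FZD2 hairpin, by less than 2-fold. NRP1 was at 40.7 FPKM with the hairpin and 75.22 in the control, from 1899 and 3756 whole counts, with a count log2 ratio of -0.95 (-1.03 to -0.87) and -0.87 on FPKM + 1. NRP2 was at 10.98 against 15.8 FPKM, from 586 and 835 whole counts, with a count log2 ratio of -0.48 (-0.63 to -0.32). Both intervals lay below 0, and that of the NRP1 to NRP2 ratio did too, at -0.47 (-0.65 to -0.30, Wald) on counts. In FPKM the ratio of NRP1 to NRP2 was 3.71 with the hairpin and 4.76 in the control. This ratio too is not free of the GC trend given below, which stood at -0.47 for NRP1 and -0.22 for NRP2. With that trend subtracted, the log2 ratios on FPKM + 1 were -0.41 for NRP1 and -0.27 for NRP2.

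The listed lengths of the neuropilins differed in opposite directions. NRP1 went from 5817.88 bases in the control to 5584.66 with the hairpin, a change of -233.22, and NRP2 from 6156.18 to 6381.74, a change of 225.56. Each gene has short transcripts for soluble forms, such as NRP1-204 and NRP2-206 at 2213 and 2386 bases, beside long membrane forms such as NRP1-206 and NRP2-204 at 5877 and 6662. Of 6689 measured genes with at least 2 transcripts and 50 counts in each library, 888 (13.3%) moved by at least 200 bases, 626 of them to shorter lengths with the hairpin. Changes of this size were thus not rare, and which transcripts account for those of the neuropilins is not given by the files.

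The order of the 8 genes by FPKM differed between the libraries. In the control it ran NRP1, VEGFB, VEGFA, NRP2, FLT1, PGF, KDR and VEGFC, and the exact Poisson intervals of neighbours down to PGF did not overlap. With the FZD2 hairpin it ran VEGFB, NRP1, FLT1, NRP2, VEGFA, PGF, KDR and VEGFC. There FLT1 (11.7 to 14.6 FPKM) and NRP2 (10.1 to 11.9) overlapped in their counting intervals, as did KDR and VEGFC. VEGFA was at place 3 in the control and place 5 with the hairpin, and FLT1 the reverse.

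Log2 ratios across the measured genes moved with the GC content of their transcripts. At the GC content of each gene the trend stood at -0.49 for FLT1, -0.47 for NRP1, -0.45 for KDR and -0.22 for NRP2, and for the neuropilins it ran the same way as their own difference. Over 1098 genes without shared reads and within 2 percentage points of the GC content of NRP1 (46.6%), the median log2 ratio was -0.48 and the central 95% ran from -1.67 to 1.09, a range that holds the -0.87 of NRP1. With that trend subtracted (GC adjustment, a setting chosen after seeing the data), NRP1 was at -0.41 and NRP2 at -0.27, and VEGFB at 0.18. The 1084 genes near its mean GC content of 56.7% had a median of -0.11 and a central 95% of -1.19 to 1.02, above the -1.56 of VEGFA, and it was at -1.46 after GC adjustment. FLT1 was at 2.11 there, although it had shared reads and the trend was fitted to genes without them. That mean is approximate for VEGFA, because most of its matched transcripts are much shorter than the length listed. VEGFA-204, the nearest to the control length at 2909 bases, has a GC content of 50.5%. The 962 genes near that value had a median of -0.35 and a central 95% of -1.48 to 1.04, whose lower end is close to the value of VEGFA, and the adjusted ratio became -1.23. By the same rule, also chosen after seeing the data, NRP1 was at -0.37, NRP2 at -0.10, VEGFB at 0.07 and FLT1 at 2.09. The adjustment by mean GC content also raised the median of all measured genes to 0.23 and changed their balance, to 2951 at least 2-fold higher and 350 lower of 13810 with a GC value, from 2188 and 1066 of 14377 without it.

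**Figure D3:**
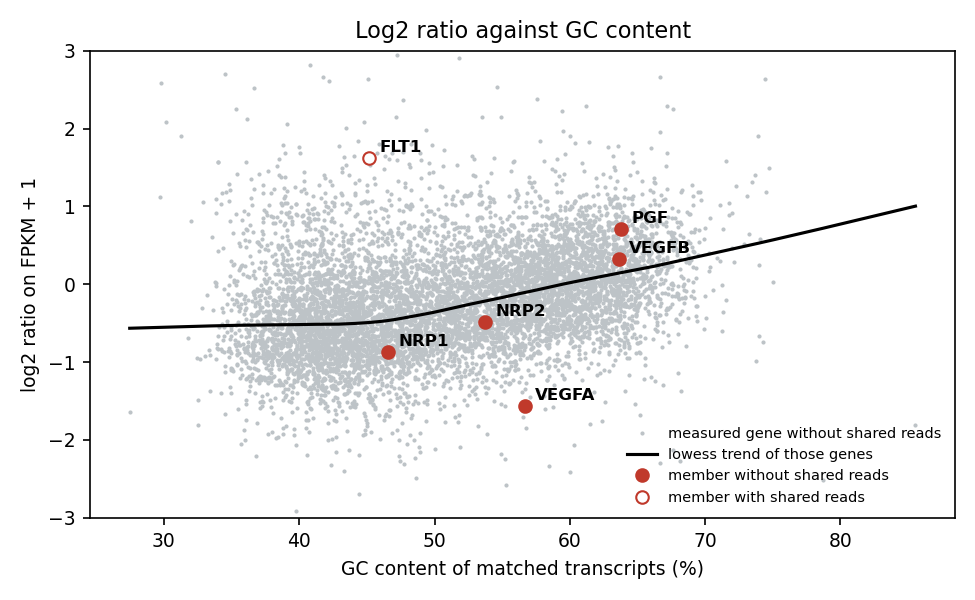
Each grey point is a measured gene without shared reads, placed by the mean GC content of its matched transcripts (%) and its log2 ratio on FPKM + 1, with their lowess trend in black and the measured VEGF genes in red (open for FLT1, which had shared reads). The trend climbs from left to right, NRP1, NRP2, VEGFB and PGF lie within the cloud, and VEGFA lies at its lower edge (7 of the 7999 genes fall outside the axis limits of 3).

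**Figure D4:**
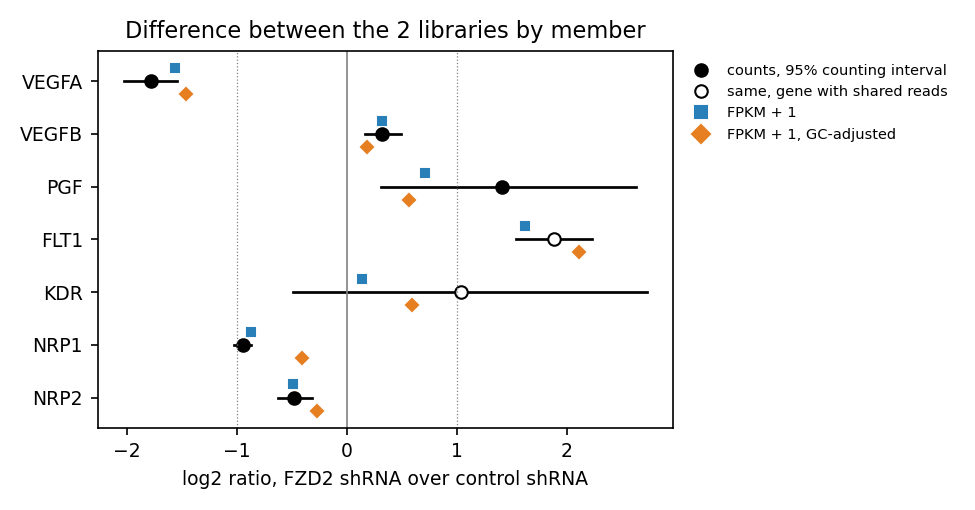
For each gene with enough counts, circles give the count log2 ratio of FZD2 shRNA over control with its 95% counting interval (open where reads were shared), squares the ratio on FPKM + 1 and diamonds that ratio after GC adjustment; dotted lines mark 2-fold. VEGFA and FLT1 lie beyond 2-fold on all 3 measures, while the diamonds of NRP1 and NRP2 lie nearer to 0.

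Genes that govern or carry VEGF signals were taken from lists written with earlier results of these data known. The count of each list stands beside 7.41% of all measured genes at least 2-fold lower and 15.2% higher. HIF1A, the oxygen-regulated factor that activates VEGFA, was at 31.11 against 83.96 FPKM (log2 ratio -1.40, or -0.88 after GC adjustment). Its relative EPAS1 was at 9.36 against 15.61 (-0.68, or -0.42 after GC adjustment). VHL, which marks HIF proteins for destruction, was at 47.11 against 16.14 (1.49, or 1.95 after GC adjustment, shared reads). EGLN1, the main HIF hydroxylase, was at 4.46 against 8.78 (-0.84, or -0.34 after GC adjustment, shared reads). Over the 7 measured genes of oxygen sensing, 1 was at least 2-fold higher and 1 lower, with a median of -0.56, or -0.18 after GC adjustment. Of 16 other hypoxia targets measured, DDIT4 alone (5.89 against 17.55, -1.43) was 2-fold lower and 0 were higher, with a median of -0.16, which turned to 0.19 after GC adjustment. With that adjustment DDIT4 was at -1.38, and ERO1A (13.79 against 8.61, 0.62, shared reads) reached 1.14. PFKFB3, a driver of glycolysis, was at 54.47 against 97.84 (-0.83, or -0.71 after GC adjustment). P4HA1 (shared reads) and KDM3A had log2 ratios of -0.84 and -0.81, or -0.33 and -0.31 after GC adjustment.

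Among 6 factors that bind VEGFA messenger RNA or like targets and set their stability, 2 were at least 2-fold lower and 0 higher. The shares over all measured genes were 7.41% and 15.2%. The median of the 6 was -0.66, or -0.46 after GC adjustment. ELAVL1, which stabilises VEGFA messenger RNA, was at 7.33 against 16.83 FPKM (-1.10, or -0.62 after GC adjustment). ZFP36, which destabilises such messengers, was at 2.77 against 7.49 (-1.17). HNRNPL was at 72.06 against 120.93 (-0.74), whereas ZFP36L1, a relative of ZFP36, was at 172.61 against 114.47 (0.59).

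On the ligand-processing side, CCBE1, a secreted protein needed to activate VEGFC, was at 15.94 against 3.25 FPKM (1.99, shared reads). The proteases FURIN (8.52 against 9.68), PCSK7 (6.03 against 8.13) and ADAMTS3 (0.62 against 1.16), which cut VEGFC or its relatives, were within 2-fold, so 1 of 4 measured genes was higher and 0 lower (median -0.27). ADAMTS3 was measured only through the control library, so a lower value with the hairpin was built into its selection. Class 3 semaphorins, the other neuropilin ligands, and their plexin receptors were read next. Of 7 measured genes 0 passed 2-fold on FPKM + 1 in either direction, with a median of -0.01, or 0.48 after GC adjustment. SEMA3A was at 28.74 against 25.5 FPKM (0.17, or 0.69 after GC adjustment), SEMA3B at 3.82 against 1.58 (0.90, shared reads), PLXNA1 at 3.99 against 4.77 (-0.21) and PLXND1 at 5.5 against 6.34 (-0.18).

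Of 37 measured genes of VEGF receptor signalling, 1 was at least 2-fold higher and 4 were lower. Their median of -0.26 turned to 0.09 after GC adjustment. The lower genes were MAP2K1, a kinase of the MAPK cascade (5.88 against 18.72 FPKM, -1.52), PTK2, focal adhesion kinase (13.79 against 38.12, -1.40, shared reads), its partner BCAR1 (27.58 against 66.79, -1.25) and the adaptor NCK1 (1.43 against 4.54, -1.19), which was named because it completes this count. PTK2 (-0.91) and NCK1 (-0.67) were within 2-fold after GC adjustment. RAC1 (0.94, or 1.31 after GC adjustment) and CRK (0.68, or 1.17, shared reads) were at least 2-fold higher only after it. HSPB1, a heat shock protein phosphorylated downstream of KDR, was at 852.29 against 321.02 (1.41). Many of these genes serve several other receptors as well.

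Other angiogenic genes included 2 of 13 measured that were at least 2-fold lower on FPKM + 1 and 0 that were higher (median -0.26). THBS1, the angiogenesis inhibitor thrombospondin 1, was at 20.24 against 63.41 FPKM (-1.60), CXCL8, the chemokine interleukin 8, at 14.5 against 38.97 (-1.37, or -0.83 after GC adjustment) and THBS2 at 27.73 against 56.02 (-0.99). ANGPT2, a ligand of the TEK receptor, was at 1.9 against 0.57 (0.89, or 1.4 and so above 2-fold after GC adjustment, shared reads). It was measured only through the FZD2 shRNA library, so a higher value there was built into its selection. Both activators and inhibitors of vessel growth were thus among the lower genes.

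**Figure D5:**
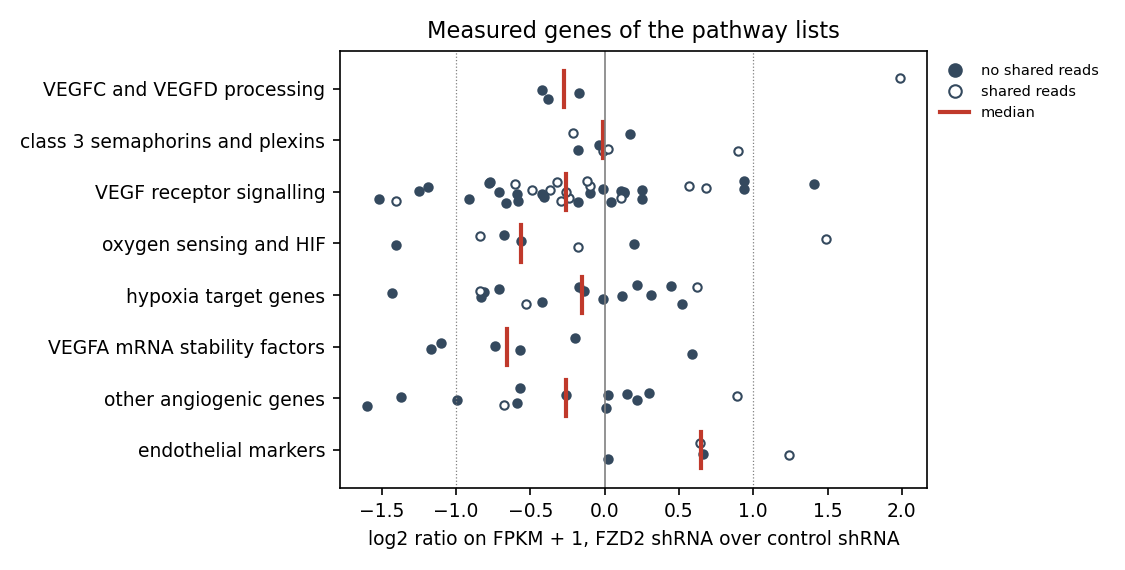
Each circle is a measured gene of a list, placed by its log2 ratio on FPKM + 1 (open where reads were shared), with the list median in red and dotted lines at 2-fold. The genes beyond 2-fold on the right are open circles apart from HSPB1, and those on the left are filled apart from PTK2.

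Shared reads and Alu-like sequence were also counted over the lists. Over all lists, markers included, 110 genes were measured, of which 5 were at least 2-fold higher, 4 of them with shared reads (CCBE1, VHL, PECAM1 and TAT), and 10 were lower, 1 of them with shared reads. Over all measured genes the shares were 15.2% higher and 7.41% lower. PECAM1 (2.33 against 0.41 FPKM) and TAT (4.65 against 0.9) were measured only through the FZD2 shRNA library, so their higher values were built into their selection. Of 21 measured genes with both shared reads and a transcript with Alu-like sequence, 4 were at least 2-fold higher, 17 lay within 2-fold and 0 were lower. Among all measured genes of that class 38.6% were at least 2-fold higher and 1.23% lower. The Alu-like share of the transcript, 1.91% to 2.72% in the 4 higher genes, ran from 0.284% to 4.2% in the 17, so the ranges overlapped. PLXNA3 (4.2%), CDC42 (3.99%) and SEMA3E (2.14%), named after their values were seen, had log2 ratios of 0.02, -0.37 and -0.01. Others of the 17 were higher with the hairpin, such as SEMA3B (3.15%) at 0.90 and ERO1A (2.38%) at 0.62. Whether the Alu-like share bears on the ratio was not tested.

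FLT1 and KDR are also endothelial genes, so endothelial markers were read beside them. Of 14 markers, 4 were measured, 1 of them at least 2-fold higher and 0 lower (median 0.65), and the summed level of all 14 was 32.59 FPKM with the FZD2 hairpin and 20.03 in the control. EGFL7 made up most of it, at 26.26 against 16.26. PECAM1 was at 2.33 against 0.41 FPKM (1.24, or 1.62 after GC adjustment) and EMCN at 1.2 against 0.41 (0.64, or 1.16). Both had shared reads. ENG was at 1.54 against 1.5. PECAM1 and EMCN were measured only through the FZD2 shRNA library, so the count of 1 higher and the median over 4 genes were in part fixed by that selection. The defining markers VWF, ERG, SOX17 and PLVAP were listed in neither library, and CDH5 was at 0.03 FPKM and unlisted in the control.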

How the data were processed

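Gene tables of 2 libraries were used. Messenger RNA was captured by its poly(A) tail, fragmented and primed at random, per the labels' protocols. Bowtie2, HISAT and hg19 appear in the submitters' processing notes. Counting program and strand setting, however, were not given in the sources used here, nor was the annotation. The deposited expected counts are the authors' estimate of reads per gene. The deposited FPKM values are the authors' scaling of them by length and depth. The deposited length differs between libraries for genes with several transcripts. Unlisted genes were set to 0.

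Symbols came from the RefSeq gene table (GRCh38.p14); all 8 members matched. The ratio was log2 of FPKM + 1, with a filter of 1 FPKM in either library and a limit of 2-fold. Counting intervals (95%) were exact conditional binomial (Clopper-Pearson) on rounded counts scaled to library totals, exact Poisson for single levels, and Wald for ratios between genes. PCR copies are not separate molecules, so intervals can be too narrow. Shared reads meant a count not whole to 0.001. GC content came from GENCODE release 29 transcripts (96.1% of measured genes), with a lowess trend (fraction 0.3) fitted to genes without shared reads. RN7SL1 was searched in all GENCODE transcripts for Alu-like stretches (blastn 2.17.0, words of 11 bases, E-value limit 1e-05). Count and interval rules were tested on simulated Poisson counts.

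The members and the 12 lists were chosen with earlier results of these data known. Named were the members, FZD2, VEGFD and FLT4, and up to 4 measured genes per list, those with the largest ratio. ALB, KLK3, NCK1, RAC1, CRK, ERO1A, PLXNA3, CDC42, SEMA3E and the unlisted or low endothelial markers were named after their values were seen. With 2 libraries, genes of like pattern could not be sought. Alternatives were pseudocounts of 0.1 and 5 FPKM, no filter and a 5 FPKM filter, TPM, a median ratio set to 0, TMM scaling (edgeR 4.0.16 in R 4.3.3), counts scaled to library totals (CPM), limits of 1.5-fold and 4-fold, the counting interval, and, added later, GC adjustment by the mean GC content or by that of the transcript nearest in length to the control's listed length. Software was Python 3.11.15 with matplotlib 3.10.9, SciPy 1.17.1, NumPy 2.4.6, statsmodels 0.14.6 and pandas 2.3.3.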

Additional observations from a re-analysis of the deposited data

How the results depend on the processing

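VEGFA stayed at least 2-fold lower and FLT1 at least 2-fold higher in every scaling, pseudocount, filter and GC setting tried, from -1.74 to -1.23 for VEGFA and from 1.07 (pseudocount of 5 FPKM) to 2.11 (GC adjustment) for FLT1. None of these settings set shared reads aside, so they did not test that limit of FLT1. The GC trend was fitted to genes without shared reads (median -0.25). Genes with shared reads and Alu-like sequence, the class of FLT1, had a median of 0.75. With a pseudocount of 0.1 FPKM, 2 members were at least 2-fold higher, as PGF reached 1.28, beside 19.9% of all measured genes. At a 1.5-fold limit 2 members were lower and 2 higher (21.7% and 26.1% of genes), and at 4-fold 0 and 0 (0.41% and 2.66%). By a counting interval that excludes 1, 3 were lower and 3 higher (36.8% and 35.5%). NRP1 ranged from -0.95 to -0.37, NRP2 from -0.52 to -0.10 and VEGFB from 0.07 to 0.48 (TPM), each nearest to 0 with the GC content of the transcript nearest in length, and PGF from 0.24 to 1.28, with no change of sign. TPM shifted the median of measured genes to 0.14 and GC adjustment to 0.23, from 0.00. No paired analysis was possible because each group is 1 library. Depth limits PGF, KDR and VEGFC, which had at most 26, 11.73 and 3 expected counts.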
